A study of Mus musculus with 95 samples.

Results

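The genes described here are 49 mouse chemokines and chemokine receptors, 30 ligands and 19 receptors, out of 25407 gene symbols measured by RNA-seq in 95 libraries from 4 tissues. They were taken by name. A ligand's symbol starts with Ccl, Cxcl, Cx3cl or Xcl and a receptor's with Ccr, Cxcr, Cx3cr or Xcr, followed by a number. Each also had to be above 0 in at least 5 libraries, as 17769 of all symbols were. Of 58 symbols with such a name, 9 were left out, namely Ccl21a, Ccl21b, Ccl21c, Ccl26, Ccl27a, Ccl28, Ccr6, Cxcl15 and Cxcl3, and 5 of these stood at 0 in every library. The rule used names and detection and no difference between groups, but the family was chosen with earlier results of these data known.

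Chemokines are small secreted proteins that draw leukocytes along a concentration gradient, and their receptors are G protein-coupled receptors on the surface of the migrating cells. The CC ligands Ccl2, Ccl7 and Ccl12 attract monocytes through Ccr2, and Ccl3, Ccl4 and Ccl5 act on Ccr1 of macrophages and T cells. Among the CXC ligands, Cxcl1, Cxcl2 and Cxcl5 attract neutrophils, Cxcl9 and Cxcl10 are induced by interferon, and Cxcl12 retains and guides Cxcr4-bearing cells in many organs without inflammation. Infiltrating macrophages and the Ccl2 and Ccr2 pair have long been studied in diabetic kidneys and in injured peripheral nerve.

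The mice were male BKS.Cg-m +/+ Leprdb/J animals, 16 weeks old, in 4 groups: db/db PIO, db/db, db/+ PIO and db/+. Mice written db/db lack a working leptin receptor throughout the body and serve as a model of type 2 diabetes with obesity, while db/+ mice carry 1 intact copy and are the nondiabetic controls. PIO mice received pioglitazone, an agonist of the nuclear receptor PPARG that sensitises tissues to insulin, at 15 mg/kg for 11 weeks. Each group gave 6 libraries of each tissue, the sciatic nerve (SCN), the dorsal root ganglia (DRG) with the sensory cell bodies, the glomeruli (Glom) and the cortex of the kidney, except that db/db DRG gave 5. The study asked how diabetes and pioglitazone change these complication-prone tissues. Libraries are described as biological replicates, and the labels do not say which tissues came from the same mouse. Contrasts between tissues therefore treat all libraries as independent. All 4 tissues are mixtures of cells, so fewer cells of a type and less RNA per cell cannot be told apart in any result below.

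Values are FPKM, fragment counts scaled by transcript length and library size, so they compare genes per length. Libraries listed between 7333 and 10432 genes above 0, their FPKM summed to between 129009 and 601310, and the read depth of single libraries is unknown from these values. An exact 0 was read as missing, because genes that every cell uses were also listed at 0. Actb stood at 0 in 74 of 95 libraries with a median of 651 FPKM in the rest, and Gapdh in 34 of 95 with a median of 234 FPKM. Of the members' own entries 31.0% were at 0 in SCN, 30.3% in DRG, 36.3% in Glom and 28.7% in cortex. Defining markers of the tissues were partly lost in the same way. Pmp22 and S100b stood at 0 in every SCN library although the myelin gene Mbp reached 7889 to 13038 FPKM, Nphs1, Wt1 and Cdkn1c stood at 0 in every Glom library, Lrp2, Slc5a2, Slc22a6 and Slc22a8 in every cortex library, and Tac1, Prph, Avil, Isl1 and Scn10a in every DRG library. A library at 0 is therefore given as listed at 0, and no fold is drawn from it.

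Differences were tested with limma on log2(FPKM + 1), with Benjamini-Hochberg adjustment over all genes tested and a threshold of 0.05. A gene was tested in a tissue when it reached 1 FPKM in at least 5 libraries of it and had at least 3 values above 0 in each group compared. For contrasts between tissues, reaching 1 FPKM in 5 libraries of either tissue was enough. That filter was passed by 26 members in SCN, 10 in DRG, 15 in Glom and 16 in cortex, and by 5 members in all tissues. The 18 members that passed it nowhere were 7 ligands (Ccl1, Ccl4, Ccl20, Ccl22, Cxcl2, Cxcl5 and Cxcl17) and 11 receptors (Ccr1l1, Ccr3, Ccr4, Ccr7, Ccr8, Ccr9, Cxcr1, Cxcr2, Cxcr3, Cxcr5 and Xcr1), and 9 of these never reached 1 FPKM in a library. A member can pass this filter through the group where it is high, and in 25 of 71 calls between 2 groups the lower group had no library at 1 FPKM. With no filter 24 of these 25 calls were kept, and that of Ccl12 in cortex was lost. The reading of a 0 as missing decides many of the calls: of 87 member calls over 26 comparisons, 25 were kept, 58 lost and 4 turned sign when zeros were entered as values. Fold changes on this scale understate the change of low genes, so the ratio of mean FPKM stands beside them where it helps. Whether the libraries of 2 groups overlapped was looked at for called members only, so it adds little to the call. How often the groups lay apart for other genes was not counted in any tissue.

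Most members sit in gene clusters. In the mm9 assembly, with GENCODE gene models, 48 of the 49 have a position, 14 of them on chromosome 11 and 12 on chromosome 9. Ccl2, Ccl7, Ccl11, Ccl12, Ccl8 and Ccl1 lie within chr11:81849073-82119192, and Ccl5, Ccl9, Ccl6, Ccl3 and Ccl4 within chr11:83339280-83478185. Cxcl9, Cxcl10 and Cxcl11 share chr5:92750357-92794511. The receptors Ccr9, Cxcr6, Xcr1, Ccr1, Ccr1l1, Ccr3 and Ccr2 lie within chr9:123587557-124028296. Outside the clusters lie Cxcl12 (chr6:117118553-117131385), Cxcl14 (chr13:56390008-56397912) and Cxcr4 (chr1:130484776-130488870). The libraries did not keep strand, so reads of 9 members cannot be told apart from those of a gene that overlaps them: Ccl2, Ccl6, Ccl19, Ccr9, Ccr10, Cxcl10, Cxcl11, Cxcl16 and Cxcr6.

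SCN held the highest ligand levels. Ccl11, the eosinophil attractant eotaxin, stood between 70.2 and 107 FPKM in the 8 SCN libraries that listed it above 0, and Cxcl12 averaged 76.1 ± 17.7 FPKM in db/+ SCN (SD, n = 5). In glomeruli Cx3cl1, which is anchored in endothelial membranes and binds Cx3cr1, ranged from 25.4 to 41.9 FPKM. Receptors were lower. Cxcr7, a scavenging receptor for Cxcl12, averaged 14.0 ± 5.21 FPKM in db/+ SCN (SD, n = 3).

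**Figure D1:**
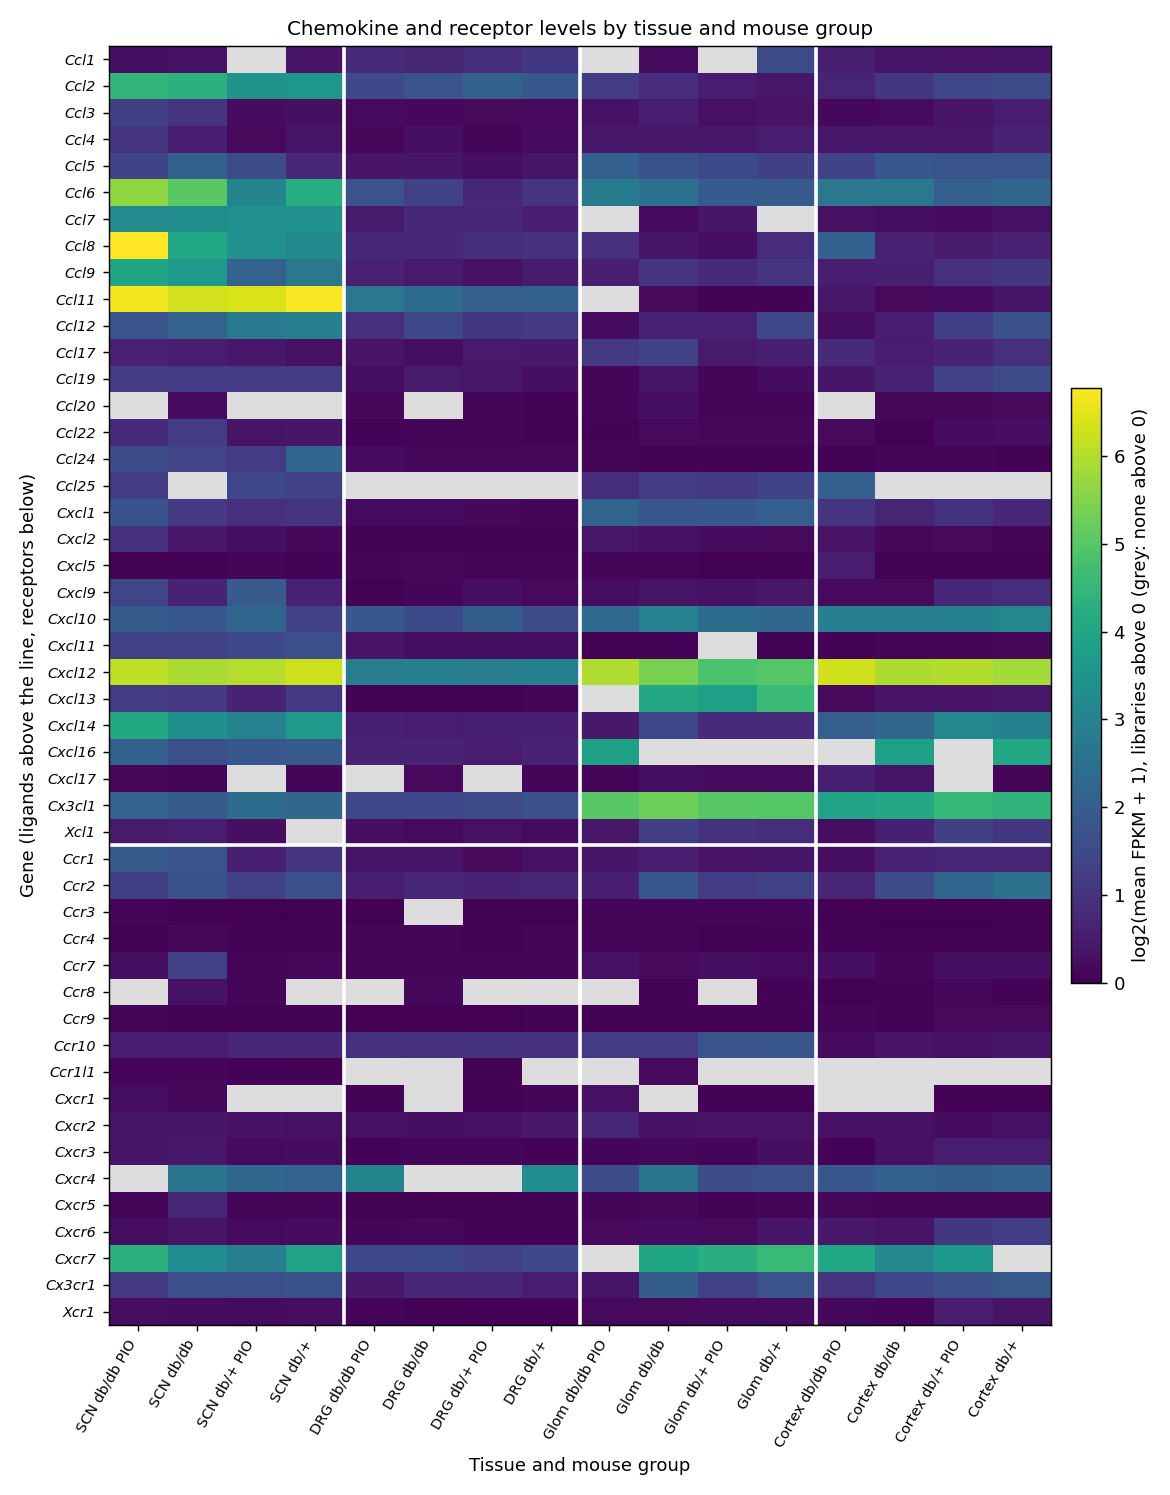
Mean level of 48 members in each tissue and mouse group, as log2(mean FPKM + 1) over libraries above 0, with ligands above the white line and receptors below it. Grey cells have no library above 0. SCN Ccl11 and Cxcl12 and glomerular Cx3cl1 are among the brightest rows, and most receptor rows are dark.

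In untreated db/+ mice the sciatic nerve was set against the ganglia that hold its sensory cell bodies. Of 23 members tested, 18 were higher in SCN and none was lower, in a comparison where 80.5% of all genes tested were called (51.2% higher and 29.3% lower) and the median gene was 0.34 higher in SCN on the log2 scale. The homeostatic ligand Cxcl12 averaged 76.1 ± 17.7 FPKM in SCN (n = 5) and 6.90 ± 1.33 FPKM in DRG (n = 6), a log2 fold change of 3.28 ± 0.15 (SE, limma adjusted p = 1.739e-30). Ccl7, a monocyte attractant, averaged 9.71 ± 1.64 FPKM in SCN and 0.485 ± 0.0965 FPKM in DRG (SD, n = 6 each), 20.0-fold apart. Ccl6, a macrophage-derived CC ligand of rodents, averaged 17.9 ± 8.26 FPKM in SCN and 1.06 ± 0.313 FPKM in DRG, with a log2 fold change of 3.11. For 10 of the 18 no db/+ DRG library reached 1 FPKM, so these entered the test through SCN. Libraries of the tissues overlapped for Cx3cl1 and Cxcl1. Under quantile normalization the Cx3cl1 difference was -0.12. Among receptors, Cxcr7, Cx3cr1, Ccr2 and Ccr1 were higher in SCN, by 2.37, 1.15, 0.91 and 0.73 on the log2 scale. The 5 members not called were Ccl3, Ccl5, Ccr10, Cxcl9 and Cxcl10.

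Glomeruli were likewise set against cortex in db/+ mice. Of 18 members tested, 3 were higher in Glom and 7 lower, where 78.2% of all genes were called (53.3% higher and 24.9% lower) and the median gene was 0.37 higher in Glom. Cxcl13, the B cell attractant that binds Cxcr5, had 24.0, 28.0, 20.4 and 22.6 FPKM in the 4 Glom libraries above 0 and averaged 0.362 ± 0.316 FPKM in cortex (SD, n = 4), a log2 difference of 4.20 ± 0.26 (SE, limma adjusted p = 4.267e-20). The receptor Ccr10, known from skin-homing T cells, averaged 2.49 ± 0.527 FPKM in Glom and 0.305 ± 0.0963 FPKM in cortex. Neither gene reached 1 FPKM in a cortex library, so both entered the test through Glom. Cxcl1 was higher in Glom by 1.19 ± 0.21. Lower in Glom were Cxcl14, a ligand made by epithelia, at 0.787 ± 1.07 FPKM against 6.80 ± 2.16 FPKM in cortex, and the receptors Ccr2 and Cxcr6. The ligands Ccl2, Cxcl10 and Cxcl12 were lower in Glom too, with log2 differences of -1.10, -0.94 and -0.83.

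**Figure D2:**
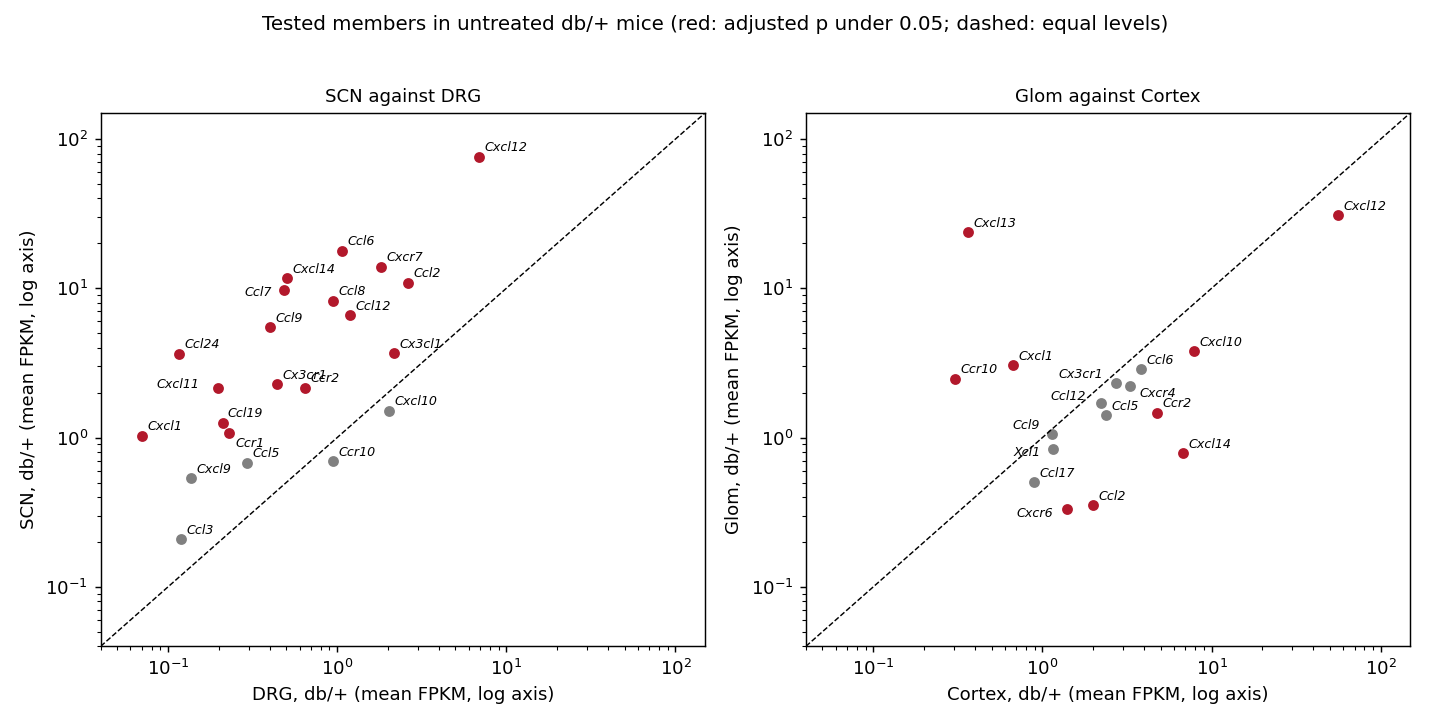
Mean FPKM of tested members in untreated db/+ mice, SCN against DRG on the left and Glom against cortex on the right, both axes logarithmic, with red points for an adjusted p under 0.05. All 17 red points of the left panel lie above the dashed line of equal levels, and Cxcl13 stands farthest above it on the right.

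In the sciatic nerve, Ccl3 and its receptor Ccr1 rose with diabetes while Ccl12 and Cxcl11 fell. Comparing db/db with db/+ mice, 5 of 21 members tested were called, 3 higher and 2 lower, beside 14.9% of all genes (7.63% higher and 7.28% lower). Ccl3 (chr11:83461346-83462857), which macrophages secrete and which binds Ccr1, had 1.77, 0.60, 1.38, 1.69, 0.22 and 0.82 FPKM in db/db SCN, against 0.08, 0.14, 0.42, 0.21 and 0.19 FPKM in db/+ SCN with 1 library at 0. Only 1 db/db library lay within the db/+ range. All 8 SCN libraries with Ccl3 at 1 FPKM or more were diabetic, so it passed the filter through these, and with no filter its limma adjusted p was 0.0233. The mean was 5.19-fold higher in db/db nerve (log2 fold change 0.73 ± 0.19, limma adjusted p = 0.0165).

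Its receptor Ccr1 rose as well. Ccr1 averaged 2.29 ± 0.976 FPKM in db/db and 1.07 ± 0.460 FPKM in db/+ SCN (SD, n = 6 each; limma adjusted p = 0.033), with overlapping libraries. The 2 lower members were ligands. Ccl12, a monocyte attractant of mice, averaged 3.39 ± 1.77 FPKM in db/db (n = 4) and 6.58 ± 1.10 FPKM in db/+ SCN (n = 5; limma adjusted p = 0.0339). Cxcl11, an interferon-induced ligand that overlaps Art3, was lower (log2 fold change -0.35 ± 0.11, limma adjusted p = 0.0455), and its log2 fold change was 0.30 under quantile normalization. Of the 5 calls, that of Ccl3 held in each of 12 fits that left out 1 library, and the count ranged from 2 to 6. The Ccl12 call was lost without db/+ replicate 1, 4 or 5 or db/db replicate 1, 3 or 4 (adjusted p up to 0.105, limma). The Ccr1 call was lost without db/+ replicate 2, 5 or 6 or db/db replicate 1, 2, 4 or 6 (up to 0.0851), and the Cxcl11 call in 9 of the 12 fits (up to 0.10). The count was 2 without db/+ replicate 5 or db/db replicate 1, and 3 without db/+ replicate 1 or 2 or db/db replicate 4 or 6.

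Other ligands did not pass the test. Ccl2, the main monocyte attractant, had 9.51 to 34.1 FPKM in db/db SCN with a median of 17.8, and 7.36 to 14.1 FPKM in db/+ SCN with a median of 10.9 (n = 6 each; log2 fold change 0.69 ± 0.27, limma adjusted p = 0.0952). Ccl9 had log2 fold changes of 0.82 ± 0.30 (limma adjusted p = 0.0749) and Ccl6 of 0.72 ± 0.38 (limma adjusted p = 0.215). Ccl7 had -0.08 ± 0.17 and the receptor Ccr2 0.04 ± 0.29. The median over the 21 members was 0.14, and over all genes tested 0.018.

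**Figure D3:**
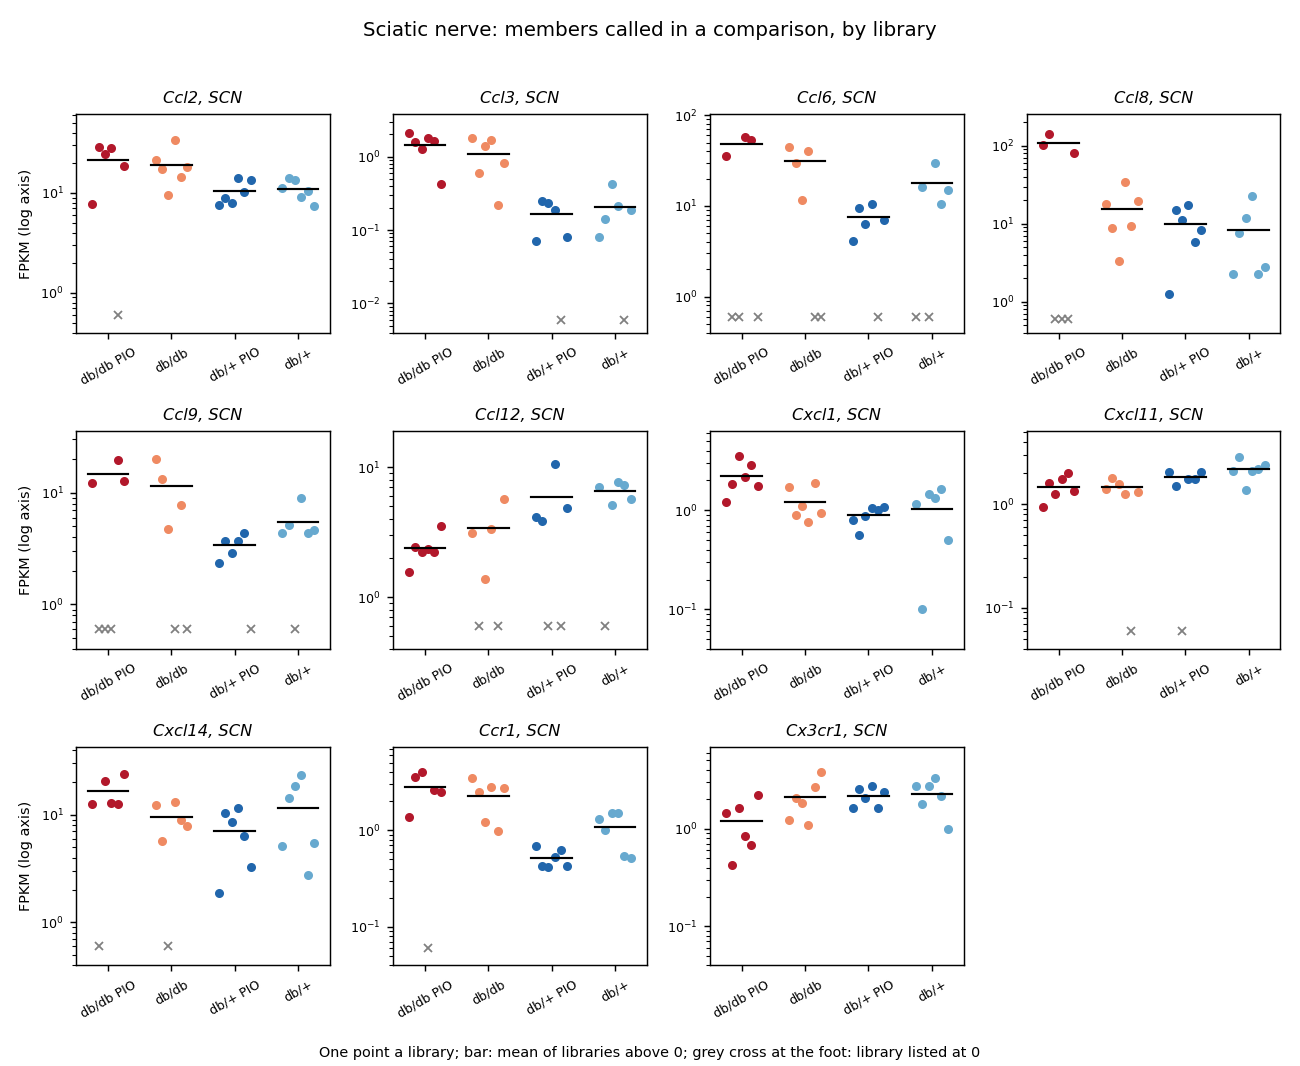
FPKM of 11 SCN members called within the tissue, on logarithmic axes, 1 point a library, in db/db PIO, db/db, db/+ PIO and db/+ mice from left to right. Bars are means of libraries above 0 and grey crosses at the foot mark libraries listed at 0. Ccl3 and Ccr1 are high in both diabetic groups, and Ccl8 is highest in db/db PIO.

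Pioglitazone in diabetic mice changed 1 SCN member of 21 tested. Ccl8, a CC ligand of the Ccl2 cluster, had 104, 141 and 80.3 FPKM in the 3 db/db PIO libraries above 0, against 17.8, 8.73, 3.36, 34.7, 9.33 and 19.5 FPKM in db/db SCN. All 3 values lay above every db/db library, and the other 3 db/db PIO libraries were listed at 0. The mean was 6.97-fold higher (log2 fold change 2.98 ± 0.69, limma adjusted p = 0.00917), where 10.1% of all genes were called (6.5% higher and 3.63% lower). Ccl8 could not be tested without db/db PIO replicate 1, 2 or 6, since under 3 values then remain, and the count of called members was 0 without replicate 2 or 6. With zeros read as values the log2 fold change was -0.39. Beside Ccl8, Fabp4, 1 of 5 listed adipocyte markers, rose by 1.44 in db/db PIO against db/db SCN. S100a8, 1 of 7 listed neutrophil markers, rose by 2.25 there. These single genes do not stand for their lists, and the part of such cells in the result was not tested. The db/db libraries are shared with the comparison of db/db and db/+ mice. The PIO over db/db log2 fold changes were 0.26 ± 0.19 for Ccl3 and 0.23 ± 0.21 for Ccr1, neither past the threshold. In db/+ mice pioglitazone called 0 of 24 members (5 at an unadjusted p under 0.05, as 12.8% of genes; 0.0778% of all genes called by limma). The difference between the pioglitazone effects in db/db and db/+ mice was called for 0 of 21 members (7 at an unadjusted p under 0.05, as 24% of genes; 6.23% of genes called by limma).

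Among pioglitazone-treated mice, Ccl3, Ccl6 and Ccl9, which lie in 1 cluster, and their receptor Ccr1 were higher in diabetic nerve. Of the same cluster Ccl5 was not called (log2 fold change 0.32 ± 0.48, limma adjusted p = 0.637) and Ccl4 was not tested. Of 22 members tested, 9 were higher and 2 lower in db/db PIO than in db/+ PIO SCN, beside 33.8% of all genes called (20.6% higher and 13.2% lower). Ccl3 had 2.09, 1.56, 1.25, 1.77, 1.63 and 0.42 FPKM in db/db PIO SCN, against 0.07, 0.25, 0.23, 0.19 and 0.08 FPKM in db/+ PIO SCN with 1 library at 0. The groups did not overlap, and the mean was 8.86-fold higher (log2 fold change 1.04 ± 0.19, limma adjusted p = 0.000375, and 0.000676 for Ccl3 with no filter). Ccr1 averaged 2.83 ± 1.04 FPKM in db/db PIO (n = 5) and 0.522 ± 0.116 FPKM in db/+ PIO SCN (n = 6; limma adjusted p = 7.116e-05). Its libraries did not overlap between the groups.

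The macrophage-derived ligands Ccl6 and Ccl9, both of which act on Ccr1 in mice, were higher. Ccl6 had 35.8, 57.0 and 53.6 FPKM in db/db PIO SCN, and 4.10, 9.47, 6.39, 10.5 and 6.93 FPKM in db/+ PIO SCN (limma adjusted p = 0.00016). Ccl9 had 12.2, 19.5 and 12.6 FPKM in db/db PIO SCN, and 2.34, 3.71, 2.86, 3.70 and 4.39 FPKM in db/+ PIO SCN (limma adjusted p = 0.000446). No library overlapped for either gene, and both rest on the 3 db/db PIO libraries above 0. Ccl8 was higher too, at 108 ± 30.8 FPKM in db/db PIO (n = 3) and 9.80 ± 5.95 FPKM in db/+ PIO SCN (n = 6). Ccl2 averaged 21.6 ± 8.80 FPKM in db/db PIO (n = 5) and 10.4 ± 2.78 FPKM in db/+ PIO SCN (n = 6), a call lost without db/db PIO replicate 2 or 4. The neutrophil attractant Cxcl1 averaged 2.23 ± 0.837 FPKM in db/db PIO and 0.890 ± 0.195 FPKM in db/+ PIO SCN (SD, n = 6 each; limma adjusted p = 0.00492), and Cxcl14 was higher by 1.26 ± 0.44 on the log2 scale, a call lost without db/+ PIO replicate 1 or 6 or db/db PIO replicate 3 or 6 (limma adjusted p up to 0.0787). The lower members were Ccl12 (log2 fold change -0.94 ± 0.25) and the receptor Cx3cr1 of resident macrophages (-0.57 ± 0.21), whose call was lost in 7 of 12 fits that left out 1 library, with db/+ PIO replicate 2, 3, 4 or 6 or db/db PIO replicate 2, 4 or 5 left out. Not called were Ccr2, Ccl7, Cxcl12 and the interferon-induced Cxcl9, Cxcl10 and Cxcl11, among others.

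Some listed genes that act around the chemokine receptors were called in the nerve as well, from lists chosen with earlier results known. Of all genes, 14.9% were called in db/db against db/+ SCN (7.63% higher). In db/db PIO against db/+ PIO SCN the share was 33.8% (20.6% higher). Of the cell migration genes listed for leukocytes, 5 of 13 tested rose and 1 fell in db/db against db/+ SCN, with Dock8, an immune cell guanine nucleotide exchange factor, at 1.63 and the receptor-coupled PI3-kinase subunit Pik3r5 at 1.17 on the log2 scale. In db/db PIO against db/+ PIO SCN 10 of 12 rose and none fell, among them the actin regulator Coro1a at 1.37 and the phagocyte GTPase Rac2 at 1.24. Rgs1, which dampens chemokine receptor signals, rose by 2.57 in db/db against db/+ SCN and by 3.25 in db/db PIO against db/+ PIO SCN. It is a single gene picked from those listed. Among the listed G protein and arrestin genes, Rgs10 had a log2 fold change of -0.96 and Gnai3 of 0.31 in db/db PIO against db/db Glom. Arrb1 had -0.47 in db/db PIO against db/+ PIO cortex. Of the NF-kB and interferon genes, Irf8 rose by 0.85 and Nfkbia by 0.62 in db/db against db/+ SCN, 2 of 8 tested. In db/db PIO against db/+ PIO SCN 4 of 6 rose (Irf8, Nfkbia, Tlr2 and Tlr4), and Irf9 and Nfkbie fell with log2 fold changes of -0.60 and -0.45. Values of macrophage and neutrophil markers stand beside these results. Cd14, the 1 macrophage marker of 12 above 0 in every SCN library, stood at 10.1 to 14.9 FPKM in db/db PIO, 7.90 to 15.1 in db/db, 3.34 to 5.28 in db/+ PIO and 5.08 to 11.3 FPKM in db/+ SCN. None of 4 macrophage markers tested was called in db/db against db/+ SCN, and 4 of 6 rose in db/db PIO against db/+ PIO SCN. Cd68 stood at 0 in every SCN library. Of 7 neutrophil markers, none was above 0 in every SCN library. The neutrophil gene S100a8, 1 of these, rose by 2.62 in db/db against db/+ SCN and by 4.74 in db/db PIO against db/+ PIO SCN, and this single gene does not stand for the list. Their part in the results of the nerve was not tested.

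Promoter sequences are shown for 4 ligands called in SCN whose start regions RefSeq gives, since the nearby letters bear on which members share a motif. RefSeq tables of the GRCm38.p6 build matched 34 of the 49 members with 35 promoters, each from 250 bases before to 50 bases after the gene start. Both strands were searched for an NF-kB site (kB, GGG and TTTCC with any 2 bases between), an interferon element (ISRE, TTTC and TTTC with any 2 bases between) and a PPAR direct repeat (DR1, AGGTCA and AGGTCA with any 1 base between). The kB letters stand in 1.63% of all 32851 promoters and in 5 of the 35, those of Ccl9, Ccl20, Ccr3, Cxcl1 and Cxcl2. The ISRE letters stand in 3.44% of all promoters and in 3 of the 35, those of Ccl19, Cxcl10 and Cxcl14, and the DR1 letters in 0.04% of all and in 0 of the 35. A match is a description of letters and not of binding, and a window without one says nothing about the factor. Each sequence runs from 5′ to 3′ on the gene's strand, with matches in capitals. Ccl9 has 1 kB match, Cxcl1 has kB matches, Cxcl14 has 1 ISRE match, and Ccl3 has none of the 3 motifs. The windows are Ccl3, chr11:83649329-83649628, minus strand, Ccl9, chr11:83578587-83578886, minus strand, Cxcl1, chr5:90890995-90891294, plus strand, and Cxcl14, chr13:56296502-56296801, minus strand.
Ccl3: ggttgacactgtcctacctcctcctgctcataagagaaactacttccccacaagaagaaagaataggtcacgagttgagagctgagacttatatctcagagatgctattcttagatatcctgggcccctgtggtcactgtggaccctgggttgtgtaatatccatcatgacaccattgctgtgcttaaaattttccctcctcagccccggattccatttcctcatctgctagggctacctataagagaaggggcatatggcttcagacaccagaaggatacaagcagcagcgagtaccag
Ccl9: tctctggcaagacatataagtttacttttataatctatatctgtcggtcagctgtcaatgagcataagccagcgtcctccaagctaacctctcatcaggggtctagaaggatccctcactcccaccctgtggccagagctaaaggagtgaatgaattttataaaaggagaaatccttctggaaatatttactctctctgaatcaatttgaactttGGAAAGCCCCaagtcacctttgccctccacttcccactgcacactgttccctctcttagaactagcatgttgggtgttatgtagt
Cxcl1: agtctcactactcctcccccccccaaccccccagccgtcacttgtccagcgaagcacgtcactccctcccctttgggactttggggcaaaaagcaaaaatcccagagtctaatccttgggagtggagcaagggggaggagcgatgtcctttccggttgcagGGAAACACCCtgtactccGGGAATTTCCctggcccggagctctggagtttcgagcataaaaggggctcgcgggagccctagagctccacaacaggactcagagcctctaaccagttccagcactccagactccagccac
Cxcl14: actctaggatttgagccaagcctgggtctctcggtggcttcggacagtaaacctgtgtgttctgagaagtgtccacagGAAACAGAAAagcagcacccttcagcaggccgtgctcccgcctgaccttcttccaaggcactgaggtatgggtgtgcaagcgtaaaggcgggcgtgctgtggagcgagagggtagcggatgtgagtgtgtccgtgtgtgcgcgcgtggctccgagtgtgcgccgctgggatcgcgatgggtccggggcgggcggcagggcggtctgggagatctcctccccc

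In the dorsal root ganglia fewer members were measurable. Of 10 tested, 0 were called between db/db and db/+ DRG (1 at an unadjusted p under 0.05, as 20.9% of genes; 4.13% of all genes called by limma), and 0 between db/db PIO and db/db DRG (2 at an unadjusted p under 0.05, as 8.57% of genes; 0% called). In db/+ mice pioglitazone called 0 of 10 (0 at an unadjusted p under 0.05, against 9.7% of genes; 0% called), and the difference in pioglitazone effect between genotypes 0 of 10 (1 at an unadjusted p under 0.05, as 13.7% of genes; 0% called). Between the treated groups 3 of 10 were called, 2 higher and 1 lower, beside 8.64% of genes (4.1% higher and 4.54% lower). Ccl6 had 1.53 to 3.26 FPKM in the 5 db/db PIO libraries above 0, and 0.29 to 1.66 FPKM with a median of 0.55 in db/+ PIO DRG (log2 fold change 1.00 ± 0.19, limma adjusted p = 0.00285). Only the highest db/+ PIO library reached into the db/db PIO range. Ccl11 averaged 5.44 ± 0.933 FPKM in db/db PIO and 3.07 ± 0.897 FPKM in db/+ PIO DRG (SD, n = 5 each; limma adjusted p = 0.0112), with overlap. Ccl2 was lower in the ganglia, at 1.83 ± 0.585 FPKM in db/db PIO and 3.30 ± 0.993 FPKM in db/+ PIO DRG (SD, n = 6 each; limma adjusted p = 0.0279), a call lost without db/+ PIO replicate 5 or 6 or db/db PIO replicate 1 (limma adjusted p up to 0.0651). Receptors tested were Ccr10 and Cxcr7, and neither was called. Fabp4, the adipocyte marker above 0 in every DRG library, ranged from 24.3 to 176 FPKM in db/db PIO and from 3.88 to 78.2 FPKM in db/+ PIO DRG, and both adipocyte markers tested rose. The macrophage marker Mrc1, 1 of 8 tested, rose by 0.52, and the dendritic cell marker H2-Ab1 had a log2 fold change of -0.83. The part of these cells in the results was not tested.

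Glomeruli gave a different set of members. Between db/db and db/+ Glom 2 of 12 members were called, beside 25.4% of all genes (16.5% higher and 8.91% lower). Ccr10 fell, with 1.5, 0.92, 0.88, 1.43, 1.21 and 1.54 FPKM in db/db Glom, against 2.81, 2.10, 3.30, 2.67, 2.06 and 1.98 FPKM in db/+ Glom (log2 fold change -0.63 ± 0.12, limma adjusted p = 0.000439). Every db/db library was below every db/+ library. In treated mice it averaged 1.31 ± 0.363 FPKM in db/db PIO (n = 5) and 2.40 ± 0.305 FPKM in db/+ PIO Glom (n = 6; limma adjusted p = 0.00443), again without overlap, and db/db PIO against db/db Glom had a log2 fold change of 0.03 ± 0.12. The gene overlaps Cntnap1 on the other strand. Cxcr4, the Cxcl12 receptor, rose in db/db Glom, with 7.74, 4.87, 3.59 and 4.81 FPKM, against 0.91, 3.99, 2.20 and 1.76 FPKM in db/+ Glom (log2 fold change 1.01 ± 0.29, limma adjusted p = 0.0175). The 2 groups overlapped by 1 library, and 4 of 6 libraries a group were above 0. Without db/+ replicate 1 or db/db replicate 1 the Cxcr4 call was lost (limma adjusted p up to 0.0593). The count of called members was 1 without db/+ replicate 1, 5 without db/+ replicate 2 and 4 without db/db replicate 6.

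Pioglitazone in diabetic mice changed 4 of 11 glomerular members, 1 higher and 3 lower, beside 23.1% of genes (7.19% higher and 15.9% lower). Cx3cr1, the fractalkine receptor of monocytes and resident macrophages, had 0.59, 0.30, 0.61, 0.08, 0.04 and 0.20 FPKM in db/db PIO Glom, against 6.58, 2.23, 3.40, 2.35, 1.74 and 1.8 FPKM in db/db Glom. The groups did not overlap, and the mean ratio was 0.101 (limma adjusted p = 0.00206). Cxcl14 had 0.67, 0.31, 0.55, 0.46, 0.17 and 0.09 FPKM in db/db PIO Glom, against 3.70, 1.64, 1.49, 1.56, 0.72 and 1.14 FPKM in db/db Glom (log2 fold change -0.92 ± 0.26, limma adjusted p = 0.0145), again without overlap. Cxcl14 reached 1 FPKM in 5 db/db Glom libraries and in none of db/db PIO, and its call was kept with no filter. Cxcr4 had 1.84, 2.49, 1.71 and 2.18 FPKM in db/db PIO Glom, below all 4 db/db values (log2 fold change -1.0 ± 0.29, limma adjusted p = 0.0202), a call lost without db/db replicate 1 (limma adjusted p = 0.0669). Without that library the count of called members was 2. The interaction, whether pioglitazone acted differently in the 2 genotypes, called 0 of 11 members (4 at an unadjusted p under 0.05, as 25.3% of genes; 9.71% called by limma), and pioglitazone in db/+ mice called 0 of 13 (1 at an unadjusted p under 0.05, as 2.67% of genes; 0% called).

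Cxcl12 went the other way. It had 46.5, 73.3, 67.3 and 60.3 FPKM in db/db PIO Glom, 29.3, 41.1, 34.0, 49.7 and 54.8 FPKM in db/db Glom, 22.5 to 32.9 FPKM in db/+ PIO Glom and 31.4, 33.7 and 27.9 FPKM in db/+ Glom. All 4 db/db PIO values were above every nondiabetic value. It rose in db/db PIO against db/db Glom by 0.57 ± 0.17 (limma adjusted p = 0.0202) and against db/+ PIO Glom by 1.10 ± 0.16 (limma adjusted p = 0.000388) on the log2 scale. The call against db/db Glom was lost without db/db replicate 1 or 4 or db/db PIO replicate 4 or 5 (limma adjusted p up to 0.0632). These values leave out libraries at 0, and with zeros read as values the 2 differences were -0.52 and -0.89. Between the treated groups 3 of 11 members were called, beside 8.41% of genes (4.23% higher and 4.18% lower). These were Cxcl12, Ccr10 and Ccl6, which averaged 6.04 ± 1.75 FPKM in db/db PIO and 2.94 ± 0.637 FPKM in db/+ PIO Glom (SD, n = 6 each; limma adjusted p = 0.0321). The Ccl6 call was lost in 6 of 12 fits that left out 1 library, those without db/+ PIO replicate 2, 5 or 6 or db/db PIO replicate 1, 2 or 4 (limma adjusted p up to 0.0740).

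Marker genes of other cells moved beside the glomerular results. Of all genes, 25.4% were called in db/db against db/+ Glom and 23.1% in db/db PIO against db/db Glom. The summed level of Cd14 and C1qa, the 2 macrophage markers of 12 above 0 in every Glom library, was 12.1 to 15.5 FPKM in db/db PIO, 24.1 to 75.4 in db/db, 14.4 to 36.3 in db/+ PIO and 15.5 to 88.5 FPKM in db/+ Glom. In db/db PIO against db/db Glom 4 of 6 macrophage markers fell. The collecting duct and distal tubule markers Krt18 and Krt19 summed to 0.34 to 5.63 FPKM in db/db PIO, 15.7 to 28.5 in db/db, 0.75 to 7.47 in db/+ PIO and 0.55 to 7.93 FPKM in db/+ Glom. All 3 markers of that list tested rose in db/db against db/+ Glom and fell in db/db PIO against db/db Glom. Neutrophil markers S100a8, S100a9 and Ltf summed to 39.7 to 157 FPKM in db/db PIO and 14.2 to 71.4 FPKM in db/db Glom. Of 4 neutrophil markers tested there S100a8 and S100a9 rose, while Lcn2, which injured tubules also make, fell with a log2 fold change of -1.52 in db/db PIO against db/db and rose by 2.15 in db/db against db/+ Glom. Of migration genes 2 of 8 tested rose in db/db against db/+ Glom (Coro1a and Apbb1ip), and 3 of 7 fell in db/db PIO against db/db Glom (Fgr and Apbb1ip among them). Among related genes outside the name rule, the chemokine-like Mif and the platelet chemokine Ppbp rose in db/db against db/+ Glom by 1.04 and 0.96, and Cd74, Mif, Pf4 and Ppbp fell in db/db PIO against db/db Glom, Cd74 most with a log2 fold change of -2.99. The part of these cells in the members' values was not tested.

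Cxcl13 in glomeruli could not be tested between genotypes. It was listed at 0 in all 6 db/db PIO libraries and above 0 in 1 db/db library, at 16.0 FPKM. It had 14.9, 20.6, 6.47 and 11.3 FPKM in db/+ PIO Glom, with 2 libraries at 0, and 20.4 to 28.0 FPKM in 4 db/+ libraries. A 0 in these files can be a failed estimate, so no level is given for the diabetic groups. Cx3cl1, the ligand of Cx3cr1, had 31.1, 40.0 and 41.9 FPKM in db/db Glom and 25.4 to 37.1 FPKM in the 4 db/+ libraries above 0 (log2 fold change 0.27 ± 0.15, limma adjusted p = 0.211).

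**Figure D4:**
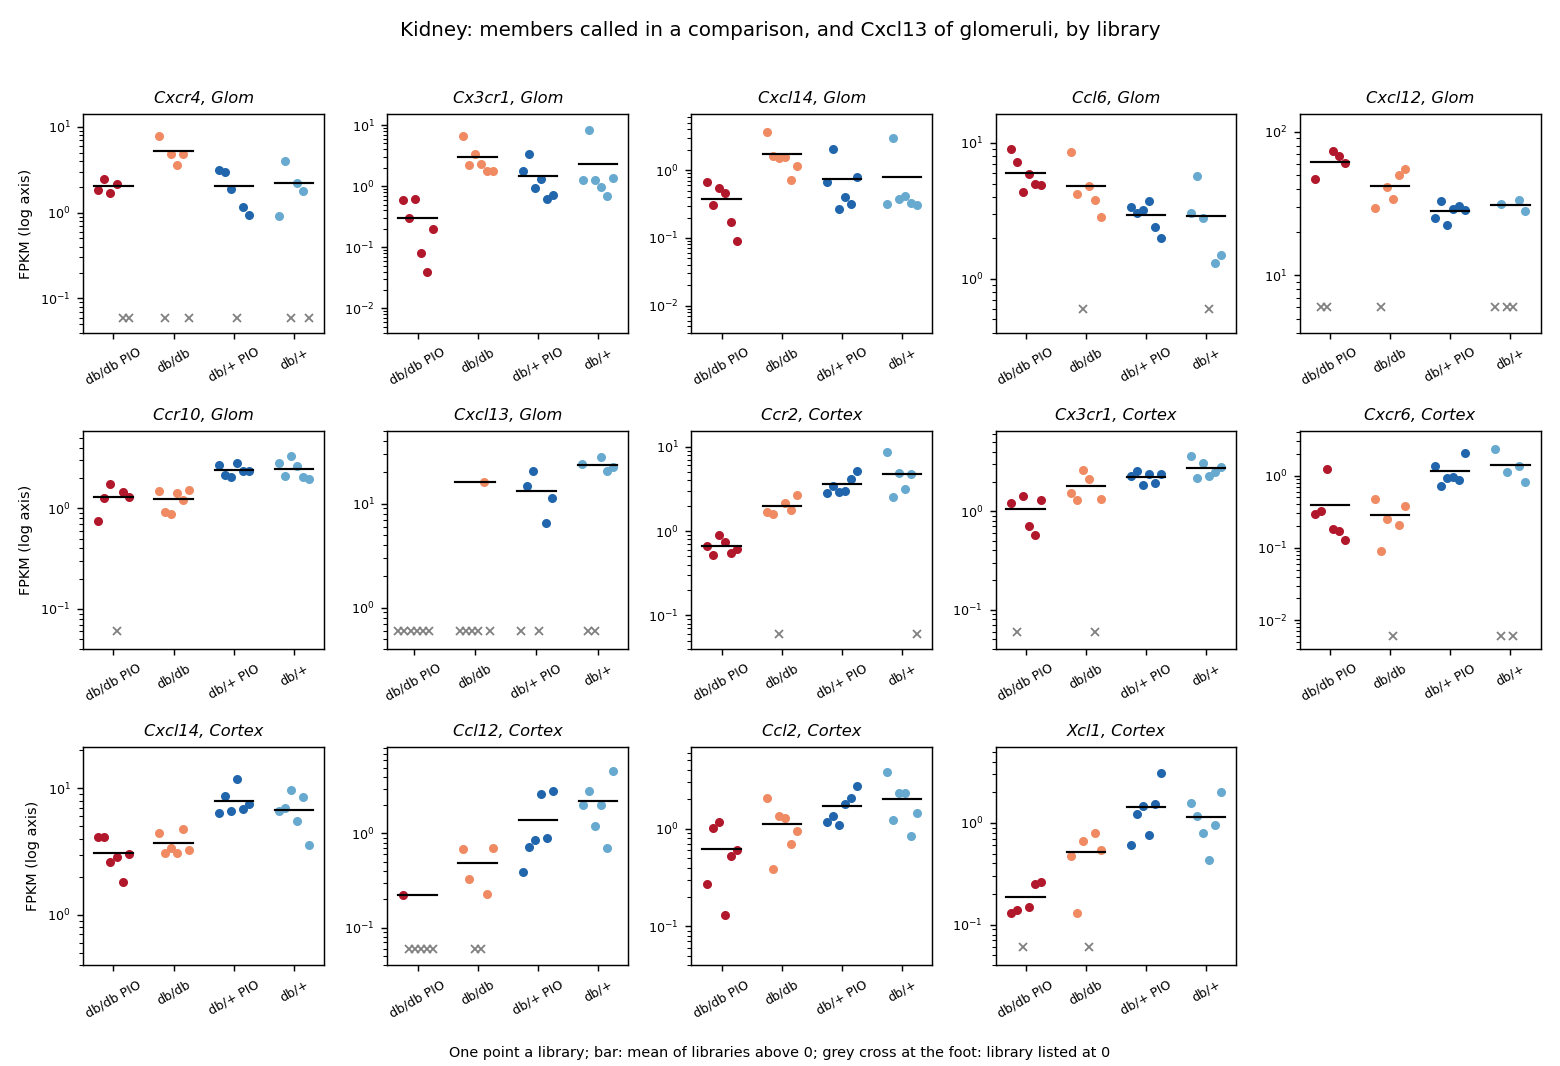
FPKM of members called within Glom or cortex, and of Cxcl13 in Glom, on logarithmic axes, 1 point a library, in db/db PIO, db/db, db/+ PIO and db/+ mice from left to right. Bars are means of libraries above 0 and grey crosses mark libraries listed at 0. Glomerular Cx3cr1 and cortical Ccr2 are lowest in db/db PIO.

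In kidney cortex every member called between genotypes was lower in diabetic mice, receptors of monocytes and T cells among them. Between db/db and db/+ cortex 6 of 15 members fell and none rose, beside 10.3% of all genes (4.33% higher and 6.01% lower), and the median over the members was -0.44 on the log2 scale, against 0.0033 over all genes. The monocyte receptor Ccr2 had 1.68, 1.59, 2.16, 1.77 and 2.66 FPKM in db/db cortex, against 8.61, 2.51, 4.84, 3.17 and 4.70 FPKM in db/+ cortex (log2 fold change -0.88 ± 0.19, limma adjusted p = 0.00455). They overlapped by 1 library. Cxcr6, the Cxcl16 receptor of T and NK cells, averaged 0.282 ± 0.152 FPKM in db/db (n = 5) and 1.40 ± 0.658 FPKM in db/+ cortex (n = 4; limma adjusted p = 0.00628), without overlap. No db/db library of Cxcr6 reached 1 FPKM, and 3 of its 6 cortex libraries at that level were db/+. With no filter its limma adjusted p was 0.01002. Cxcl14 averaged 3.68 ± 0.745 FPKM in db/db and 6.80 ± 2.16 FPKM in db/+ cortex (SD, n = 6 each; limma adjusted p = 0.0147). Cx3cr1 and Ccl12 were called near the threshold (limma adjusted p = 0.0473 and 0.0493), and those 2 calls were lost in 7 and 9 of 12 fits that left out 1 library (limma adjusted p up to 0.125 and 0.112).

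Between the treated groups 7 of 13 members fell and none rose, beside 19.7% of genes (7.09% higher and 12.6% lower). Ccr2 had 0.66, 0.52, 0.90, 0.74, 0.55 and 0.62 FPKM in db/db PIO cortex, against 2.81, 3.43, 2.94, 2.96, 4.15 and 5.09 FPKM in db/+ PIO cortex. Its mean ratio was 0.187 (log2 fold change -1.44 ± 0.18, limma adjusted p = 6.784e-06), with a wide gap between the groups. Xcl1, which T and NK cells secrete to reach Xcr1-bearing dendritic cells, had 0.13, 0.14, 0.15, 0.25 and 0.26 FPKM in db/db PIO cortex and 1 library at 0, against 0.61, 1.22, 1.46, 0.76, 1.53 and 3.10 FPKM in db/+ PIO cortex (limma adjusted p = 0.00121). Cxcl14 averaged 3.11 ± 0.908 FPKM in db/db PIO and 7.99 ± 2.05 FPKM in db/+ PIO cortex (SD, n = 6 each; limma adjusted p = 0.000106). None of these 3 overlapped between the groups, and how often other genes lay apart was not counted. For Xcl1 no db/db PIO library reached 1 FPKM, and 4 of its 7 cortex libraries at that level were db/+ PIO. With no filter its limma adjusted p was 0.00239. Cx3cr1, Cxcr6 and Ccl2 fell too, with log2 fold changes of -0.68 ± 0.14, -0.64 ± 0.17 and -0.75 ± 0.22, and the Ccl2 call was lost without db/+ PIO replicate 6. The estimates ran negative for 9 of the 13 tested.

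Within diabetic mice pioglitazone lowered 1 of 13 cortical members, beside 3.24% of genes (0.566% higher and 2.67% lower). Ccr2 averaged 0.665 ± 0.139 FPKM in db/db PIO (n = 6) and 1.97 ± 0.442 FPKM in db/db cortex (n = 5; log2 fold change -0.83 ± 0.19, limma adjusted p = 0.0215), without overlap. The count was 3 without db/db replicate 6. Cx3cr1 had a log2 fold change of -0.44 ± 0.14 that missed the threshold (limma adjusted p = 0.0863). In db/+ mice pioglitazone called 0 of 15 members (0 at an unadjusted p under 0.05, against 2.57% of genes; 0.025% called by limma), and the difference between genotypes 0 of 13 (1 at an unadjusted p under 0.05, as 9.05% of genes; 0.031% called). Ccl6, Cxcl12 and Cxcl1 were not called in any cortical comparison of groups.

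Most listed leukocyte genes called in the cortex fell, as its receptors did. Of all genes, 10.3% were called in db/db against db/+ cortex (6.01% lower). In db/db PIO against db/+ PIO cortex the share was 19.7% (12.6% lower). Of the migration genes, 6 of 9 tested fell in db/db against db/+ cortex, among them Coro1a with a log2 fold change of -0.95 and Rac2 with -0.79, and 8 of 10 fell in db/db PIO against db/+ PIO cortex. Of the NF-kB and interferon genes 3 of 10 and 6 of 12 fell in those comparisons, Il1b, a macrophage cytokine, in both. The B cell marker Igj had the lowest log2 fold changes of the marker lists, -3.37 in db/db against db/+ and -2.34 in db/db PIO against db/+ PIO cortex, and all 3 dendritic cell markers tested (Cd209a, H2-Ab1 and Itgax) fell in both. Of T cell markers 1 of 3 and 0 of 3 tested fell, and no neutrophil marker of 3 was called. Among related genes outside the name rule, the chemokine-like Mif rose by 1.11 in db/db against db/+ cortex, while Pf4 had a log2 fold change of -0.78. Cd74 had -1.34 in db/db PIO against db/+ PIO cortex, and Cklf -0.56 in db/db PIO against db/db cortex. Macrophage markers fell in 5 of 6 tested in db/db against db/+ and in 6 of 7 tested in db/db PIO against db/+ PIO cortex. In db/db PIO against db/db cortex, where Ccr2 fell, the macrophage markers C1qa, C1qb, Cd14 and Lyz2 fell as well. Their log2 fold changes were -0.78, -0.86, -0.76 and -1.05, beside 3.24% of all genes called there. The T cell markers Cd4 and Lck summed to 0.19 to 0.56 FPKM in db/db PIO, 0.41 to 1.2 in db/db, 0.52 to 1.44 in db/+ PIO and 0.93 to 1.99 FPKM in db/+ cortex. Cd14 and Mrc1, the 2 macrophage markers of 12 above 0 in every library, summed to 2.12 to 4.41 FPKM in db/db PIO, 3.51 to 5.98 in db/db, 3.02 to 5.83 in db/+ PIO and 3.53 to 9.99 FPKM in db/+ cortex. Their part in the members' values was not tested.

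**Figure D5:**
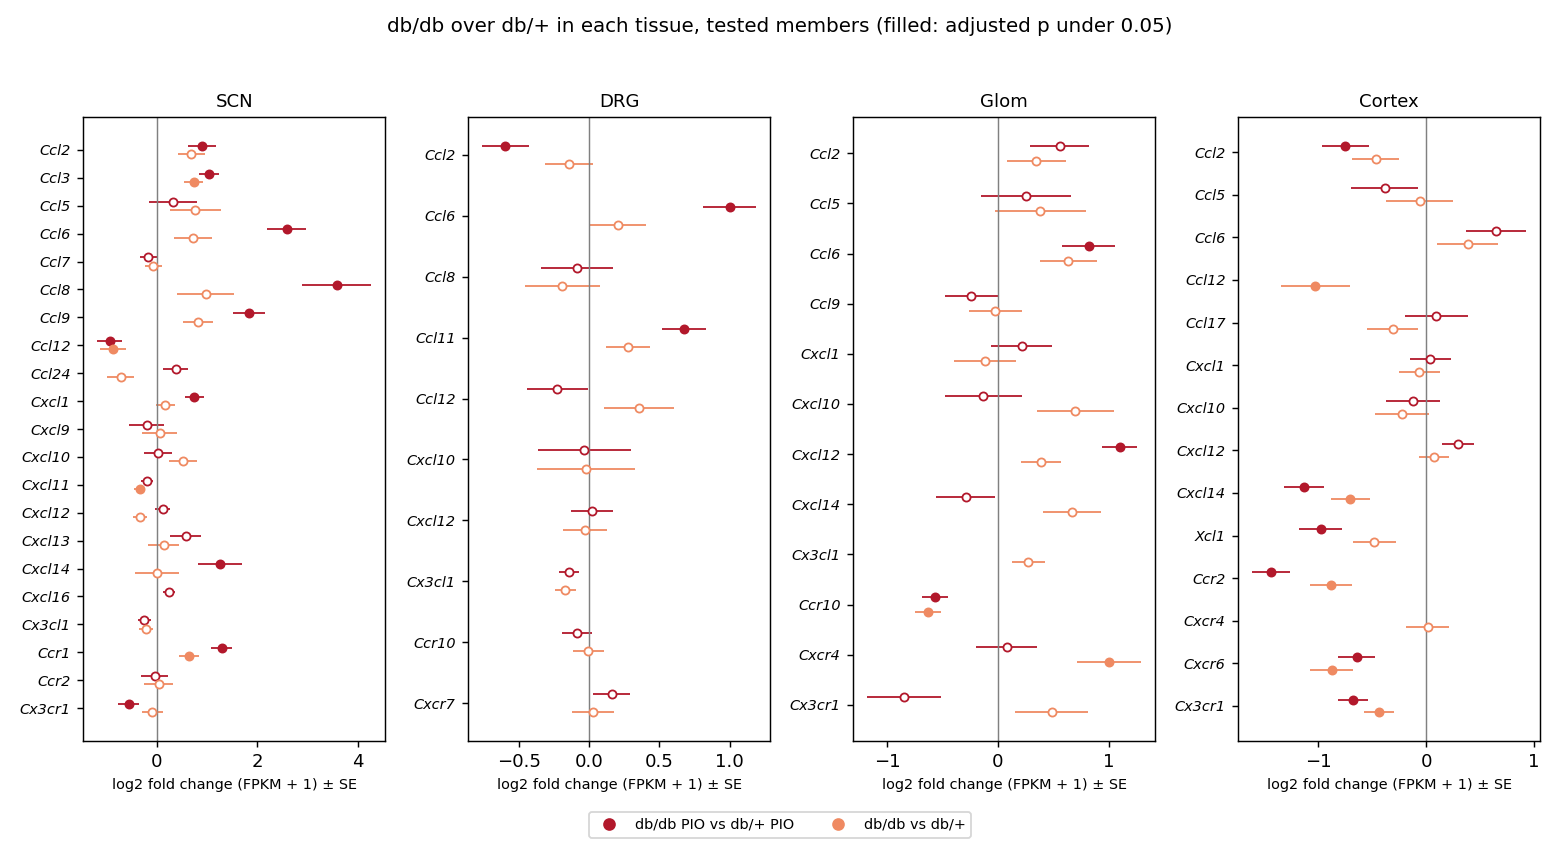
Log2 fold change of db/db PIO over db/+ PIO (dark red) and of db/db over db/+ (orange), with its SE, for members tested in either comparison, 1 panel a tissue. Filled points have an adjusted p under 0.05. Filled points lie mostly right of 0 in SCN and all left of 0 in cortex.

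Whether the responses themselves differ between tissues was tested in 1 fit of all 16 groups, which treated all libraries as independent. If tissues came from the same mice, the p-values leave that pairing out. The diabetes response, db/db minus db/+, was compared between SCN and Glom for 17 members, of which 4 were called beside 20.4% of genes (6.87% higher and 13.5% lower). On the log2 scale SCN minus Glom was 0.84 for Ccl9, 0.41 for Ccr10, which fell in Glom, and -0.72 for Cxcl12 (limma adjusted p = 0.0335, 0.0452 and 0.0339). With zeros read as values the Ccl9 difference was -0.0404. Of 24 fits that left out 1 library, the Ccl9 call was kept in 15 and the Ccr10 call in only 11. The Cxcl12 call was kept in 14 of the 18 fits that could test it. The limma adjusted p was up to 0.202 for Ccl9, 0.14 for Ccr10 and 0.0788 for Cxcl12. Dropping Glom db/db replicate 5 brought the count to 1, and dropping replicate 6 of that group brought it to 2. Dropping db/+ replicate 1 or 5 or db/db replicate 4 of SCN brought it to 2 as well. Between Glom and cortex 6 of 15 diabetes responses were called, beside 17.5% of genes (12.1% higher and 5.33% lower). Glom minus cortex was 1.37 for Cxcl14 (limma adjusted p = 0.0074), 0.99 for Cxcr4, 0.99 for Ccl17, 0.92 for Cx3cr1, 0.70 for Cxcr6 and -0.59 for Ccr10. Of 24 fits that left out 1 library, the Cx3cr1 call was lost in 12 (limma adjusted p up to 0.115), namely those without replicate 1, 3, 4, 5 or 6 of Glom db/+, 1 or 3 of Glom db/db, 1 or 3 of cortex db/+, or 1, 2 or 6 of cortex db/db. The Cxcr4 call was lost in 6 (limma adjusted p up to 0.112), without replicate 1 or 5 of Glom db/+, 1 of Glom db/db, 3 or 6 of cortex db/+, or 2 of cortex db/db. The Ccl17 call was lost without replicate 2 or 4 of Glom db/db (limma adjusted p up to 0.0672). SCN and cortex were not compared in this way.

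The pioglitazone response, db/db PIO minus db/db, differed between SCN and Glom for 5 of 14 members, all of them positive as SCN minus Glom, beside 24.9% of genes (19.5% higher and 5.39% lower). The difference was 1.65 for Cxcl14 (limma adjusted p = 0.00115), 1.05 for Cx3cr1 (limma adjusted p = 0.00855), 0.91 for Ccl9 and 0.83 for Cxcl9. Those of Cxcl14 and Cx3cr1 kept their calls whichever library was dropped. The Ccl9 call was lost without replicate 3 or 5 of SCN db/db, 1 or 3 of Glom db/db, or 3 or 5 of Glom db/db PIO (limma adjusted p up to 0.165), and the Cxcl9 call in 12 of 24 fits, without replicate 2 or 3 of SCN db/db, 1, 2 or 3 of SCN db/db PIO, 1, 2 or 3 of Glom db/db, or 1, 3, 5 or 6 of Glom db/db PIO (limma adjusted p up to 0.108). Dropping replicate 3 of SCN db/db brought the count to 2. It came to 3 on dropping replicate 3 of SCN db/db PIO, 1 or 3 of Glom db/db, or 3 or 5 of Glom db/db PIO. Between Glom and cortex 1 of 12 members was called, beside 14.6% of genes (5.7% higher and 8.94% lower). Cx3cr1 had a difference of -1.10 (limma adjusted p = 0.0147), which was lost without Glom db/db replicate 1.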

How the data were processed

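The deposited files hold 1 table of FPKM per library. The authors made TruSeq mRNA libraries, sequenced them on an Illumina HiSeq instrument, mapped them to mm9 using TopHat and Bowtie, and had Cufflinks estimate FPKM. No version of these tools is stated. The pipeline does not keep strand, and the study's own test, Cuffdiff, needs aligned reads. Here limma 3.58.1 in R 4.3.3 was fitted to log2(FPKM + 1) with exact 0 as missing, a mean for each group, each tissue fitted with its 4 groups together (16 groups for contrasts between tissues), variances moderated with an intensity trend, and Benjamini-Hochberg adjustment over all genes tested. Genes entered when 5 or more of a tissue's libraries reached 1 FPKM and each group had at least 3 values (for contrasts between tissues, either tissue's libraries). The test was tried on simulated data first. Tables and plots used Python 3.11.15, pandas 2.3.3, numpy 2.4.6 and matplotlib 3.10.9. No 2 libraries held identical values (0 pairs).

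The members and the lists of pathway genes and cell markers were chosen with earlier results of these data known. Library values are given for members with an adjusted p under 0.05 in a comparison, and the others are given as levels and counts. A few genes are not reported here, so counts, which cover all tested, can exceed the genes named or drawn. P-values rest on the spread between libraries above 0, pooled over the groups of each fit and moderated with an intensity trend. Alternatives were zeros as values, a pseudocount of 0.1, median-of-ratios or quantile rescaling, no low-value filter, only the compared groups in the fit, replicate number as a block, at least 5 values per group, and leaving out each library.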

Additional observations from a re-analysis of the deposited data

Results flagged for a closer look

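Some single libraries stood apart from the rest of their group by Dixon's test, in 12 of 103 groups of 4 to 6 values. The test's rate of about 1 in 20 holds for normally distributed values. Here it was run on untransformed FPKM of members with a call, so the share cannot be set against chance. All flagged values but that of Ccl11 were the highest of their group. In SCN, Ccl12 stood at 10.6 FPKM in db/+ PIO replicate 4 (the others at 3.88 to 4.84), and Ccl9 at 8.89 FPKM in db/+ replicate 4 (others 4.33 to 5.18). In DRG, Ccl11 was lowest in db/db replicate 5 at 2.66 FPKM (others 4.45 to 5.0), Ccl2 stood at 3.89 FPKM in db/+ replicate 6 (others 2.14 to 2.76), and Ccl6 at 1.66 FPKM in db/+ PIO replicate 3 (others 0.29 to 0.61).

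Glomerular Cx3cr1 and Cxcl14 both stood apart in db/db replicate 1 and db/+ replicate 2, and Cxcl14 also in db/+ PIO replicate 2. Cx3cr1 had 6.58 FPKM in db/db replicate 1 (others 1.74 to 3.40) and 8.34 FPKM in db/+ replicate 2 (others 0.68 to 1.35). Cxcl14 had 3.70 FPKM in db/db replicate 1 (others 0.72 to 1.64), 2.03 FPKM in db/+ PIO replicate 2 (others 0.27 to 0.79) and 2.96 FPKM in db/+ replicate 2 (others 0.31 to 0.42). In cortex, Cxcr6 had 1.25 FPKM in db/db PIO replicate 3 (others 0.13 to 0.32), and Xcl1 had 3.10 FPKM in db/+ PIO replicate 6 (others 0.61 to 1.53).

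The other results in need of a closer look are responses that differed between tissues when the difference itself was tested with limma. Several of these calls were lost in fits that left out 1 library, as given above. For the diabetes response, SCN minus Glom was 0.84 for Ccl9, 0.41 for Ccr10 and -0.72 for Cxcl12 on the log2 scale. For the pioglitazone response, SCN minus Glom was 0.91 for Ccl9, 1.05 for Cx3cr1, 1.65 for Cxcl14 and 0.83 for Cxcl9. For the diabetes response, Glom minus cortex was 0.99 for Ccl17, -0.59 for Ccr10, 0.92 for Cx3cr1, 1.37 for Cxcl14, 0.99 for Cxcr4 and 0.70 for Cxcr6. For the pioglitazone response, Glom minus cortex was -1.10 for Cx3cr1.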

How the results depend on the processing

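Of 87 member calls over 26 comparisons, the share kept depended most on how an exact 0 was read. With zeros as values, 25 calls were kept, 58 lost and 4 turned sign: Ccl8 in SCN db/db PIO against db/db (-0.39), Cxcl12 in Glom db/db PIO against db/db (-0.52) and against db/+ PIO (-0.89), and Ccl9 in the SCN minus Glom diabetes response (-0.0404). Quantile rescaling turned Cxcl11 in SCN db/db against db/+ (0.30) and Cx3cl1 in SCN against DRG (-0.12), kept 62 calls and lost 23. Kept and lost calls were 83 and 4 with median-of-ratios rescaling, 80 and 7 with no filter, 77 and 10 with pseudocount 0.1, and 71 and 16 with only the compared groups fitted. With at least 5 values per group 58 of 58 testable calls were kept. Leaving out 1 library kept 1059 of the 1194 calls that could still be tested, lost 135 and turned 0. Fits in which a member could no longer be tested are outside this count. Ccl8 in SCN db/db PIO against db/db, for example, was tested in 9 of 12 fits.

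Counts of called members moved as follows. With zeros as values db/db against db/+ gave 0 in SCN, 0 in Glom and 0 in cortex; db/db PIO against db/db gave 0 in SCN, 1 in Glom and 0 in cortex; db/db PIO against db/+ PIO gave 1 in SCN, 0 in DRG, 0 in Glom and 3 in cortex; the 4 contrasts of responses between tissues gave 0. Pseudocount 0.1 gave 1 for the Glom interaction, 2 for cortex db/db PIO against db/db, 1 for the SCN minus Glom diabetes response, and 2 for each Glom minus cortex response. Without a filter SCN db/db against db/+ gave 3 and cortex db/db PIO against db/+ PIO 11. Median-of-ratios rescaling gave 1 for the SCN and the Glom interaction and 3 for the SCN minus Glom pioglitazone response. Quantile rescaling gave 10, 1 and 3 for db/db against db/+ in SCN, Glom and cortex, 1 for Glom db/db PIO against db/+ PIO, 0 for cortex db/db PIO against db/db, 8 and 1 for the SCN minus Glom responses, and 2 and 0 for the Glom minus cortex responses. With only the compared groups fitted the counts were 2 and 3 for db/db against db/+ in SCN and cortex, 2 for SCN db/db PIO against db/db, 1 and 3 for the SCN minus Glom responses, and 3 for the Glom minus cortex diabetes response. At least 5 values per group gave 0 and 7 for SCN db/db PIO against db/db and db/+ PIO, 1 for Glom db/db against db/+, 2 for Glom db/db PIO against db/db, 2 and 3 for the SCN minus Glom responses, and 3 for the Glom minus cortex diabetes response. The cause of these shifts was not tested.

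The deviations of same-numbered libraries correlated above 0.1 in 12 of 36 pairs in SCN, 13 of 33 in DRG, 18 of 36 in Glom and 13 of 36 in cortex, with medians of 0.021, 0.073, 0.109 and 0.055 (0.008, -0.003, -0.029 and -0.009 for pairs with other numbers). Pairs with other numbers were above 0.1 in 52 of 180 in SCN, 48 of 165 in DRG, 52 of 180 in Glom and 43 of 180 in cortex. The median of same-numbered pairs was the higher in each tissue. What the numbers stand for was not tested, and the main fits used them as names only. With the replicate block 83 calls were kept and 4 lost, and the counts were 2 for SCN db/db PIO against db/db, 2 for the SCN interaction, 5 for Glom db/db against db/+ and 2 for the Glom interaction.

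Leaving out 1 library gave, for db/db against db/+, 2 to 6 in SCN, 1 to 5 in Glom and 4 to 5 in cortex; for db/db PIO against db/db, 0 to 1 in SCN, 2 to 4 in Glom and 1 to 3 in cortex; for db/db PIO against db/+ PIO, 8 to 11 in SCN, 6 to 7 in cortex, and 2 to 3 in both DRG and Glom. The interaction gave 0 to 3 in SCN and in Glom, and the responses 1 to 6 and 2 to 5 for SCN minus Glom and 4 to 7 and 0 to 1 for Glom minus cortex. SCN against DRG gave 15 to 19 and Glom against cortex 8 to 13 in db/+ mice. Missing values limit every result: a gene at 0 in more than 3 libraries of a group of 6 was not tested.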

Other observations

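A few members stood out in single libraries, given here as values with no test. In SCN db/db replicate 4 the lymph node homing receptor Ccr7 reached 7.28 FPKM and the Cxcl13 receptor Cxcr5 3.52 FPKM, with Ccl22 at 3.95 FPKM and Ccl5 at 12.6 FPKM. In SCN db/+ PIO replicate 4 the interferon-induced ligands Cxcl9 and Cxcl10 stood at 9.13 and 11.2 FPKM, where the groups' medians were 1.78 and 2.10 FPKM, and Ccl5 at 8.59 FPKM. Cxcr4 was listed at 0 in all 6 SCN libraries of db/db PIO mice.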
